A study of Mus musculus with 18 samples.

Results

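The genes described here are 46 genes of DNA replication and S phase, named by their symbols and found among the 29307 genes of the deposited table. The list was drawn up by the known roles of the genes, though earlier results of these data were known at the time. All 46 passed the filter on low values and were among the 16342 genes tested. mRNA was sequenced from whole kidneys of IKKβ∆Tub mice (Pax8-rtTA-LC1Cre/IKKβ fl/fl) and control mice (IKKβ fl/fl). The strains were compared at baseline and at 2 times after ischemia-reperfusion (I/R) injury, made by a vascular clamp on the left renal pedicle, namely 2 days and 14 days, with 3 libraries for each of the 6 groups. Both strains received doxycycline from 6 weeks of age for 2 weeks, followed by 1 week of wash-out, so that controls had the drug and the floxed alleles but no Cre. The deletion was targeted to tubule cells through the Pax8 promoter. IKKβ in the other cells of the kidney was not measured separately.

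S phase is the part of the cell cycle in which the genome is copied. Origins are licensed when the origin recognition complex, CDC6 and CDT1 load the MCM ring, and geminin then blocks a further round. The ring becomes an active helicase with CDC45 and the GINS complex, after which primase and the polymerases copy both strands along the PCNA clamp. Ribonucleotide reductase and thymidylate synthesis supply the building blocks, and E2F factors with cyclin E switch many of these genes on. The healthy adult kidney divides little, and surviving tubule cells are known to enter the cell cycle after ischemic injury.

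Libraries held 26285452 to 66317182 gene reads at baseline, 12306138 to 23850455 at 2 days and 13053850 to 25933188 at 14 days. The sample key deposited with the table lists the baseline libraries as a later set of samples, with animals of other numbers than the injured ones, and they were sequenced deeper. Injury, sample set and depth therefore cannot be told apart in any difference from baseline. The sample titles, unlike the key, give a replicate the same mouse numbers at all 3 times. A level below is a deposited normalised read count, the read number of a gene over the 90th percentile of all genes in that library, and it is compared between libraries and not between genes. The labels call each library a pool of 2 mice, while the sample key lists 2 mice for 10 libraries and 1 mouse for 8, among them all 3 of IKKβ∆Tub at 14 days. Ikbkb itself, the targeted gene, had levels of 0.376 to 0.551 in IKKβ∆Tub and 0.736 to 0.861 in control kidneys at baseline. At 2 days the Ikbkb levels were 0.846 to 0.986 in IKKβ∆Tub kidneys and 0.829, 0.855 and 1.29 in control kidneys, so that control libraries 1 and 2 of that time lay no higher than the deleted strain. At 14 days they were 0.669 to 0.844 in IKKβ∆Tub and 1.11 to 1.21 in control kidneys. Libraries also differed in Y-linked reads, which were found in IKKβ∆Tub replicates 2 and 3 at baseline, all 3 IKKβ∆Tub replicates and control replicate 1 at 2 days, and control replicates 1 and 2 at 14 days. Proximal tubule markers, the sum of 8 genes, were present in all libraries, with summed levels of 110 to 137 in IKKβ∆Tub and 123 to 176 in control kidneys at baseline. At 2 days they were 80.2 to 111 in IKKβ∆Tub and 45.1 to 102 in control kidneys, and at 14 days 27.4 to 68.7 in IKKβ∆Tub and 19.8 to 25 in control kidneys.

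E2F factors bind a short core, and its letters were looked for in the promoters because many replication genes are known E2F targets. Of the 46 genes, 37 had a promoter window in the RefSeq table, reaching from 250 bases before to 50 bases after the start. The core was searched as TTCCCGC on both strands, with overlapping matches counted singly. Its second form was TTGGCGC, the third form was TTGCCGC, and the fourth form was TTCGCGC, all searched in the same way. At least 1 form was found in 23 of the 37 genes (62.2%), against 17.7% of tested genes with a window and 10.9% of all genes with one. The stretches below show how the matches are laid out, with RefSeq bases of build GRCm38.p6 printed 5′ to 3′ along each gene's own strand and every core match in capitals. Mcm5 and Mcm6, subunits of the MCM ring, hold overlapping pairs, the Mcm5 stretch being chr8:75109309-75109508 (+) and the Mcm6 stretch chr1:128359706-128359865 (-).
Mcm5: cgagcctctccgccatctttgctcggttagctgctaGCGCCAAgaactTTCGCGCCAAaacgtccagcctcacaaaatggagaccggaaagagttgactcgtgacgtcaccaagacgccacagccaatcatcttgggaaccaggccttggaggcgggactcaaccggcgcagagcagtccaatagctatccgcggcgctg
Mcm6: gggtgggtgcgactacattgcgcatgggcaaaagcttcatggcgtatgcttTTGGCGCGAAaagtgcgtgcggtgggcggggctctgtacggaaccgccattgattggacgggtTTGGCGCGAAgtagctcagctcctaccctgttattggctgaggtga
Match numbers given here are those of the printed stretches, which end before the start. Pola1, the catalytic subunit of polymerase alpha at chrX:93632156-93632355 (-), has 3 separate matches, and Chaf1a, a histone chaperone at chr17:56040256-56040415 (+), has 2.
Pola1: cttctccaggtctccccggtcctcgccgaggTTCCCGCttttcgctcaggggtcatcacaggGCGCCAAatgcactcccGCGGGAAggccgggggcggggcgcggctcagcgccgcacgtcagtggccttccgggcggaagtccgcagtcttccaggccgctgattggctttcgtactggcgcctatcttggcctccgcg
Chaf1a: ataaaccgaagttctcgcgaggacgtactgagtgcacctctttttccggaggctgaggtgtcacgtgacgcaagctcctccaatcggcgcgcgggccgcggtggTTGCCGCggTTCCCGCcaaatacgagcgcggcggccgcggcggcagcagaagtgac
Single matches lie in the stretches of Rrm1 (chr7:102441535-102441694, +), Uhrf1 (chr17:56303177-56303336, +) and E2f8 (chr7:48881597-48881756, -). A second window of Uhrf1, not printed, also holds a match.
Rrm1: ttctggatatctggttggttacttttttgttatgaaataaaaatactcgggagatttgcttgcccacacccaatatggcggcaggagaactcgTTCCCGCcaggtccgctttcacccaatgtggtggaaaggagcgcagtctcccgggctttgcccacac
Uhrf1: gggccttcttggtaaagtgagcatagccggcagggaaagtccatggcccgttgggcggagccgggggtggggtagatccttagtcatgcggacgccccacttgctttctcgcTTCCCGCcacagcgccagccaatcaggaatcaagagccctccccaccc
E2f8: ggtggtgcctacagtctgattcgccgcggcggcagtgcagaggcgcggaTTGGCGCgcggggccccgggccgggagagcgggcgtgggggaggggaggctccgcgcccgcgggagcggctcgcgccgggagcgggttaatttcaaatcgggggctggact
Mcm10 (chr2:5012792-5012951, -) and Tyms (chr5:30073626-30073785, -) are shown for contrast, since their windows hold none of these letters. They were picked for a course unlike that of most members, which for Mcm10 holds in IKKβ∆Tub. Others without a match rose at 2 days like most, among them Ccne1 and Tk1. The mean level of Tk1 went from 0.0959 to 1.21 in IKKβ∆Tub and from 0.117 to 1.20 in control kidneys.
Mcm10: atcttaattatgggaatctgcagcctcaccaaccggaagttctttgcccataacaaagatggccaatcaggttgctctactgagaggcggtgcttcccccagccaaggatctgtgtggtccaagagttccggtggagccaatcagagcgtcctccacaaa
Tyms: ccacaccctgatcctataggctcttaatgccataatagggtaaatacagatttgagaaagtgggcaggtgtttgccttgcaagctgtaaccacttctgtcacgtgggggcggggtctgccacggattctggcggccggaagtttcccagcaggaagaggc
Over all member windows there were 44 matches, of which 25 lay wholly before the start and 29 had their centre within 100 bases of it. Other promoter letters stood nearer to the tested genes, with CCAAT in 56.8% of the members against 41.9%, the GC box GGGCGG in 73% against 63.5%, and TTTGAA, a cell cycle homology region, in 13.5% against 14.9%. Median GC content was 58.3% in member windows and 59.7% in windows of tested genes. Members with a core match had a median log2 fold change at 2 days of 3.20 in IKKβ∆Tub and 2.95 in control kidneys, and the 14 with a window and no match 2.01 in IKKβ∆Tub and 2.00 in control kidneys. These are descriptions of letters in 1 window per start, and binding was not measured.

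**Figure D1:**
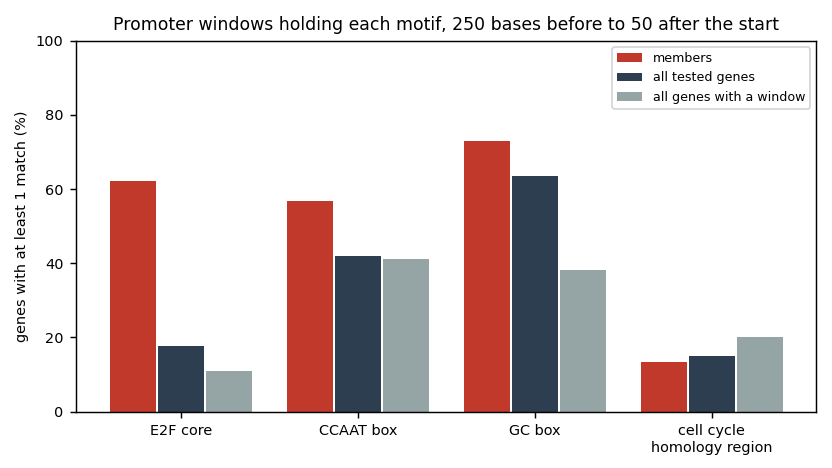
Percent of genes with a promoter match, for the 37 members with a window (red), all tested genes with a window (dark) and all genes with a window (grey), by motif on the horizontal axis. The E2F core separates the members (62.2%) from tested genes (17.7%) more widely than the CCAAT box, the GC box or TTTGAA.

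The replication genes were high in both strains 2 days after injury. In IKKβ∆Tub kidneys 45 of the 46 had higher mRNA levels than at baseline and none had lower ones (limma, adjusted p under 0.05), where 35.4% of all tested genes were higher and 14.9% lower. In control kidneys all 46 were higher, against 25.4% of tested genes higher and 11.3% lower. The median log2 fold change of the members was 2.89 in IKKβ∆Tub (all tested genes 0.25) and 2.65 in control (all tested genes 0.16). In 44 members the 6 libraries of 2 days all lay above the 12 others, which held for 8.69% of tested genes, and the exceptions were Mcm10 and Ung. The highest changes were those of Uhrf1 (5.54 in IKKβ∆Tub and 5.11 in control), Clspn (5.07 and, in control, 4.65) and E2f8 (4.99 and, in control, 4.64), and the lowest in IKKβ∆Tub those of Mcm10 (0.89, not past the threshold), Pcna (1.21) and Tyms (1.55). In control the lowest were Gmnn (1.33), Tyms (1.47) and Pcna (1.48). Fold changes are on the log2(level + 0.005) scale, which understates the change of genes with low levels. Whole kidneys were sequenced, and more cells in S phase cannot be told apart from more mRNA per cell, nor one cell type from another. The summed level of the mitosis markers moved alongside, with 11.2 to 12.6 in IKKβ∆Tub and 10.9 to 13.3 in control kidneys at 2 days, against 0.110 to 0.148 in IKKβ∆Tub and 0.122 to 0.593 in control kidneys at baseline. Macrophage markers, 8 genes summed, stood at 11.6 to 12.7 in IKKβ∆Tub and 7.76 to 9.75 in control kidneys at 2 days, against 1.41 to 1.75 and, in control, 1.64 to 2.11 at baseline. Fibroblast markers, 5 genes summed, stood at 29.1 to 37.7 in IKKβ∆Tub and 23.8 to 39.8 in control kidneys at 2 days. At baseline their sum was 1.96 to 2.99 in IKKβ∆Tub and 2.90 to 4.35 in control kidneys. The 2-day sum was mostly Col1a1 (8.18 to 13.5 over both strains) and Col3a1 (11.5 to 21.7). Dcn, another gene of the sum, stood at 1.35 to 1.58 in IKKβ∆Tub and 0.943 to 1.37 in control kidneys at 2 days. The Dcn levels at baseline were 0.700 to 0.981 in IKKβ∆Tub and 0.631 to 1.21 in control kidneys. Neutrophil markers, 7 genes with 1 to 3 of them at 0 in each library, stood at 1.46 to 2.09 in IKKβ∆Tub and 0.592 to 0.695 in control kidneys at 2 days, against 0.0534 to 0.269 and, in control, 0.0188 to 0.0549 at baseline. The proximal tubule sum at 2 days lay below baseline in every control library. In IKKβ∆Tub replicate 1 at 2 days (111) it was within the baseline range of its strain. Its genes did not all fall in IKKβ∆Tub, where Slc5a2 stood at 4.38 to 7.13 against 3.06 to 4.36 at baseline. Aqp1 in IKKβ∆Tub was at 3.42 to 4.63 against 15.0 to 21.2 at baseline. The part of these cell types in the rise of the replication genes was not tested.

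**Figure D2:**
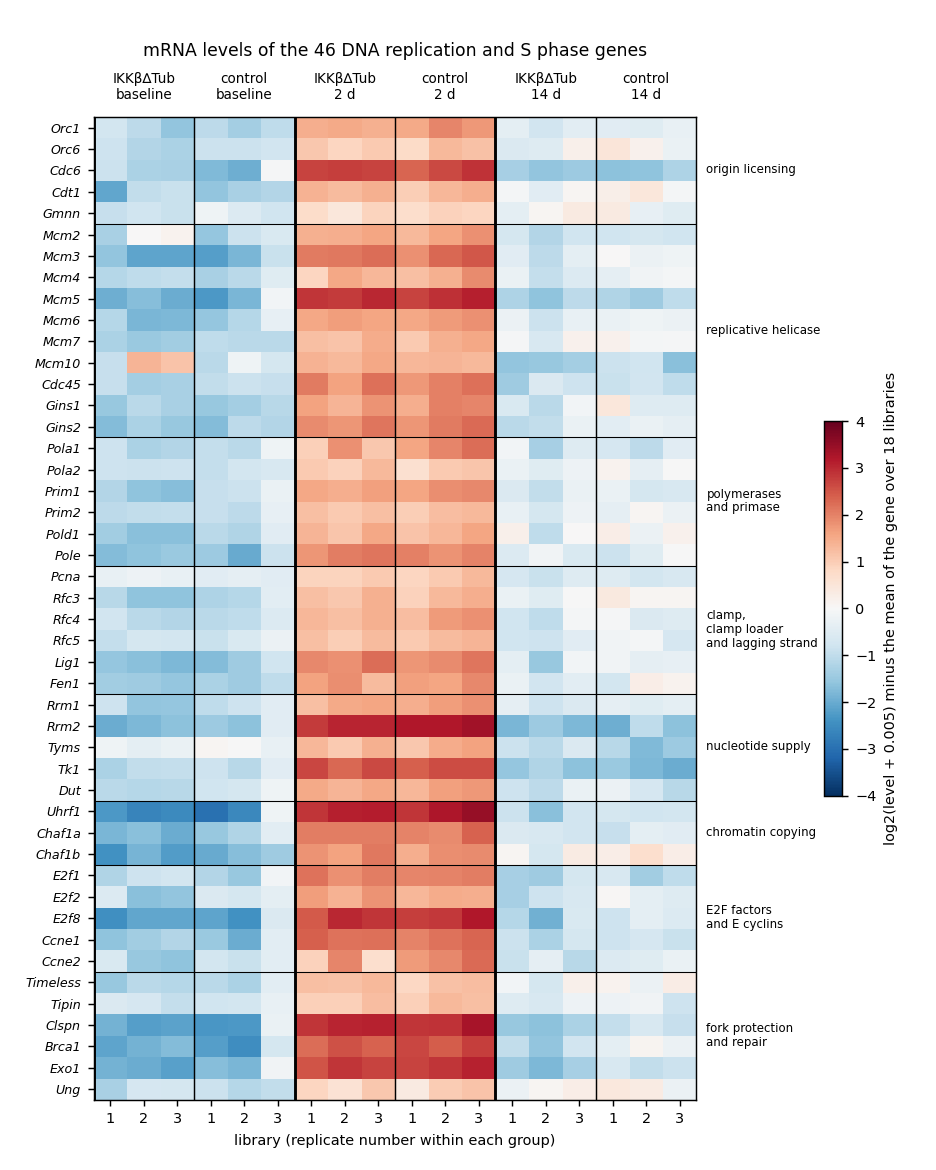
Each row is 1 of the 46 members, ordered by role, and each column 1 of the 18 libraries; colour gives the log2 level relative to the gene's mean over all libraries. The 6 libraries of 2 days form the high block, with Mcm10 the one row that is also high in IKKβ∆Tub replicates 2 and 3 at baseline (0.233 and 0.200).

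Between 2 and 14 days the levels fell again. In IKKβ∆Tub kidneys all 46 members were lower at 14 days than at 2 days, against 19.6% of tested genes, and the median log2 fold change was -2.13. In control kidneys 45 of 46 were lower, against 18.2% of tested genes, with a median of -2.22. The exception was Ung, the uracil DNA glycosylase, at -0.67 (adjusted p = 0.0544). By the sample key both injured times belong to the earlier set of samples, which baseline does not. The largest falls were those of Rrm2 (-4.66 in IKKβ∆Tub and -4.80 in control), Clspn (-4.47) and Exo1 (-4.21) in IKKβ∆Tub, and Tk1 (-4.28) and Cdc6 (-4.12) in control.

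All 5 licensing genes were higher at 2 days in both strains, and at 14 days 4 were still above baseline in IKKβ∆Tub and 3 in control kidneys. The exception in both was Cdc6, the loader that brings the MCM ring to origins. Cdc6 had levels of 0.0116, 0.00742 and 0.00737 in IKKβ∆Tub and 0.00391, 0.00276 and 0.0241 in control kidneys at baseline. The Cdc6 levels were 0.190, 0.198 and 0.189 in IKKβ∆Tub and 0.145, 0.184 and 0.220 in control kidneys at 2 days, and 0.00686, 0.00512 and 0.00599 in IKKβ∆Tub and 0.00464, 0.00480 and 0.00790 in control kidneys at 14 days. The 2-day libraries stood far above the others, with log2 fold changes over baseline of 3.85 (SE 0.36) in IKKβ∆Tub and 3.88 (SE 0.36) in control, and the 14-day values of -0.32 and, in control, -0.24 did not pass (adjusted p = 0.512 and, in control, 0.604). Cdt1, the second loader, had 0.0468, 0.105 and 0.112 in IKKβ∆Tub and 0.0689, 0.0849 and 0.0919 in control kidneys at baseline. The Cdt1 levels were 0.575, 0.522 and 0.578 in IKKβ∆Tub and 0.424, 0.551 and 0.597 in control kidneys at 2 days, and 0.201, 0.155 and 0.228 in IKKβ∆Tub and 0.250, 0.292 and 0.204 in control kidneys at 14 days. Every 14-day library of Cdt1 lay above every baseline library, and the log2 fold change at 14 days was 1.18 (SE 0.26, adjusted p = 0.00270) in IKKβ∆Tub and 1.54 (SE 0.26, adjusted p = 0.000185) in control. Reads of Cdt1 overlap Gm20388 on the same strand. Gmnn, the gene of geminin, which holds CDT1 in check, had 0.123, 0.135 and 0.127 in IKKβ∆Tub and 0.212, 0.163 and 0.136 in control kidneys at baseline. The Gmnn levels were 0.404, 0.328 and 0.449 in IKKβ∆Tub and 0.389, 0.461 and 0.439 in control kidneys at 2 days, and 0.181, 0.256 and 0.306 in IKKβ∆Tub and 0.311, 0.192 and 0.168 in control kidneys at 14 days. Its change at 14 days passed in IKKβ∆Tub (0.89, adjusted p = 0.00710) and not in control (0.36, adjusted p = 0.214), where the groups overlapped and the baseline levels were higher. Orc1, the largest subunit of the origin recognition complex, had 0.00604, 0.00393 and 0.00119 in IKKβ∆Tub and 0.00391, 0.00207 and 0.00406 in control kidneys at baseline. The Orc1 levels were 0.0448, 0.0476 and 0.0435 in IKKβ∆Tub and 0.0469, 0.0651 and 0.0560 in control kidneys at 2 days, and 0.00901, 0.00586 and 0.00866 in IKKβ∆Tub and 0.00835, 0.00800 and 0.00973 in control kidneys at 14 days. These levels rest on 5 to 95 reads a library, and the 14-day call of Orc1 in IKKβ∆Tub (0.59, adjusted p = 0.0467) is near the threshold with overlapping groups. Orc6, another subunit, passed over baseline at 14 days in both strains, with 0.80 in IKKβ∆Tub and 0.95 in control.

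Of the 10 helicase genes, 9 were higher at 2 days in IKKβ∆Tub and 10 in control, with Mcm10 the exception. At 14 days 4 were higher and 1 lower in IKKβ∆Tub, and 6 were higher in control. Mcm5 had 0.0428, 0.0511 and 0.0416 in IKKβ∆Tub and 0.0327, 0.0469 and 0.166 in control kidneys at baseline. The Mcm5 levels were 1.32, 1.26 and 1.48 in IKKβ∆Tub and 1.19, 1.37 and 1.57 in control kidneys at 2 days, and 0.0738, 0.0556 and 0.0832 in IKKβ∆Tub and 0.0742, 0.0640 and 0.0863 in control kidneys at 14 days. It had the highest 2-day change of the ring subunits, 4.76 (SE 0.37) in IKKβ∆Tub and 4.31 (SE 0.37) in control, and control replicate 3 at baseline (0.166) lay above every 14-day library. Mcm6 had 0.246, 0.153 and 0.156 in IKKβ∆Tub and 0.186, 0.246 and 0.438 in control kidneys at baseline. The Mcm6 levels were 1.65, 1.78 and 1.67 in IKKβ∆Tub and 1.61, 1.81 and 1.98 in control kidneys at 2 days, and 0.468, 0.302 and 0.451 in IKKβ∆Tub and 0.457, 0.495 and 0.469 in control kidneys at 14 days. Within each strain its 14-day libraries all lay above baseline, with 1.12 (SE 0.25, adjusted p = 0.00281) in IKKβ∆Tub and 0.79 (SE 0.25, adjusted p = 0.0159) in control. Mcm2 had 0.136, 0.345 and 0.381 in IKKβ∆Tub and 0.115, 0.187 and 0.225 in control kidneys at baseline. The Mcm2 levels were 0.925, 0.955 and 1.03 in IKKβ∆Tub and 0.850, 1.04 and 1.23 in control kidneys at 2 days, and 0.209, 0.149 and 0.196 in IKKβ∆Tub and 0.194, 0.210 and 0.197 in control kidneys at 14 days. IKKβ∆Tub replicates 2 and 3 at baseline were higher for Mcm2 than every 14-day library, and its 14-day change did not pass in either strain (-0.51 in IKKβ∆Tub and 0.23 in control). Cdc45, which joins MCM and GINS in the active helicase, had 0.0332, 0.0236 and 0.0250 in IKKβ∆Tub and 0.0322, 0.0352 and 0.0336 in control kidneys at baseline. The Cdc45 levels were 0.305, 0.219 and 0.329 in IKKβ∆Tub and 0.238, 0.289 and 0.332 in control kidneys at 2 days, and 0.0223, 0.0439 and 0.0360 in IKKβ∆Tub and 0.0343, 0.0384 and 0.0310 in control kidneys at 14 days. The baseline and 14-day libraries of Cdc45 overlapped in both strains, with 0.25 in IKKβ∆Tub and 0.03 in control. Among the other ring subunits, Mcm3 and Mcm7 stayed above baseline at 14 days in both strains (Mcm3 1.30 in IKKβ∆Tub and 1.50 in control). Mcm7 was at 1.22 in IKKβ∆Tub and 1.07 in control, and 3 microRNA genes lie within its span. Of the GINS subunits, Gins2 passed in both strains, and Gins1 passed in control (1.14) and not in IKKβ∆Tub (0.70, adjusted p = 0.0695).

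Mcm10, which helps the loaded helicase start and ties it to polymerase alpha, followed a course of its own. Its levels at baseline were 0.0433, 0.233 and 0.200 in IKKβ∆Tub and 0.0386, 0.0762 and 0.0513 in control kidneys, so that IKKβ∆Tub replicates 2 and 3 were near the levels of the 2-day libraries. At 2 days they were 0.236, 0.224 and 0.266 in IKKβ∆Tub and 0.229, 0.234 and 0.220 in control kidneys, and at 14 days 0.0257, 0.0271 and 0.0306 in IKKβ∆Tub and 0.0455, 0.0480 and 0.0237 in control kidneys. In IKKβ∆Tub the 2-day change was 0.89 (SE 0.44, adjusted p = 0.102), and with replicate 2 of IKKβ∆Tub baseline left out it passed. The 14-day level of Mcm10 in IKKβ∆Tub was below baseline (-2.02 (SE 0.44, adjusted p = 0.00221)), and in control -0.46 did not pass (adjusted p = 0.399). Without replicates 2 and 3 of IKKβ∆Tub baseline, the libraries of that group with Y-linked reads, the 14-day value of Mcm10 was -0.56 and did not pass (adjusted p = 0.320), and the 2-day value was 2.35 and passed (adjusted p = 0.000508). That leaves 1 baseline library in the group, which is assumed to vary like the other groups. Y-linked reads were also present in the 3 IKKβ∆Tub libraries of 2 days and near 0 in those of 14 days. With the Y-linked level as a covariate the 14-day change of Mcm10 over baseline was -1.33 and passed in IKKβ∆Tub (adjusted p = 0.0211).

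All 6 polymerase and primase genes were higher at 2 days in both strains, and 5 in IKKβ∆Tub and 4 in control were still higher at 14 days. Pole, the leading-strand polymerase, had 0.0217, 0.0238 and 0.0261 in IKKβ∆Tub and 0.0274, 0.0169 and 0.0435 in control kidneys at baseline. The Pole levels were 0.297, 0.360 and 0.381 in IKKβ∆Tub and 0.354, 0.302 and 0.342 in control kidneys at 2 days, and 0.0545, 0.0739 and 0.0526 in IKKβ∆Tub and 0.0436, 0.0582 and 0.0821 in control kidneys at 14 days. Its groups at 14 days and baseline did not overlap within either strain (1.17 (SE 0.27, adjusted p = 0.00342) in IKKβ∆Tub and 0.99 (SE 0.27, adjusted p = 0.00646) in control). Prim2, the large primase subunit, had 0.0453, 0.0476 and 0.0485 in IKKβ∆Tub and 0.0498, 0.0452 and 0.0783 in control kidneys at baseline. The Prim2 levels were 0.236, 0.209 and 0.232 in IKKβ∆Tub and 0.199, 0.241 and 0.251 in control kidneys at 2 days, and 0.0798, 0.0586 and 0.0846 in IKKβ∆Tub and 0.0761, 0.106 and 0.0833 in control kidneys at 14 days. The 14-day change of Prim2 was 0.59 in IKKβ∆Tub and 0.60 in control, and 1 control library at baseline (0.0783) lay within the 14-day range. Pola1 had 0.0625, 0.0454 and 0.0480 in IKKβ∆Tub and 0.0572, 0.0524 and 0.102 in control kidneys at baseline. The Pola1 levels were 0.227, 0.419 and 0.250 in IKKβ∆Tub and 0.353, 0.461 and 0.560 in control kidneys at 2 days, and 0.106, 0.0425 and 0.0792 in IKKβ∆Tub and 0.0705, 0.0528 and 0.0833 in control kidneys at 14 days. At 2 days IKKβ∆Tub replicates 1 and 3 of Pola1 were below all control libraries and replicate 2 was between them, and at 14 days Pola1 did not pass in either strain (0.43 in IKKβ∆Tub and 0.00 in control). Pold1, the lagging-strand polymerase, and Pola2, the B subunit of polymerase alpha, passed in both strains at 14 days (Pold1 1.32 in IKKβ∆Tub and 0.99 in control). Prim1, the catalytic primase subunit, passed in IKKβ∆Tub (0.89) and not in control (0.15), and its interaction is given with the strain differences.

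The 6 genes of the clamp, its loader and the lagging strand were all higher at 2 days in both strains, and 3 stayed higher at 14 days in each strain, while Pcna stood below baseline in IKKβ∆Tub. Pcna, the sliding clamp, had 0.673, 0.710 and 0.663 in IKKβ∆Tub and 0.604, 0.644 and 0.601 in control kidneys at baseline. The Pcna levels were 1.53, 1.54 and 1.69 in IKKβ∆Tub and 1.49, 1.71 and 2.01 in control kidneys at 2 days, and 0.518, 0.444 and 0.572 in IKKβ∆Tub and 0.576, 0.490 and 0.525 in control kidneys at 14 days. The 14-day libraries of Pcna all lay below the baseline libraries of their strain, with -0.42 (SE 0.13, adjusted p = 0.0158) in IKKβ∆Tub and -0.22 (SE 0.13, adjusted p = 0.167) in control. Pcna pseudogenes exist and could share its reads. Lig1, which seals Okazaki fragments, had 0.0745, 0.0685 and 0.0618 in IKKβ∆Tub and 0.0650, 0.0828 and 0.131 in control kidneys at baseline. The Lig1 levels were 0.888, 0.825 and 1.11 in IKKβ∆Tub and 0.792, 0.867 and 1.02 in control kidneys at 2 days, and 0.175, 0.0761 and 0.212 in IKKβ∆Tub and 0.205, 0.179 and 0.182 in control kidneys at 14 days. The low library of Lig1 at 14 days was IKKβ∆Tub replicate 2, which was just above the baseline range of its strain (0.0618 to 0.0745), and the change over baseline was 1.01 (SE 0.29, adjusted p = 0.0134) in IKKβ∆Tub and 1.04 (SE 0.29, adjusted p = 0.00813) in control. Fen1, the flap endonuclease, had 0.00403, 0.00393 and 0.00309 in IKKβ∆Tub and 0.00489, 0.00379 and 0.00667 in control kidneys at baseline. The Fen1 levels were 0.0677, 0.0804 and 0.0515 in IKKβ∆Tub and 0.0685, 0.0658 and 0.0842 in control kidneys at 2 days, and 0.0146, 0.00878 and 0.0126 in IKKβ∆Tub and 0.00928, 0.0235 and 0.0213 in control kidneys at 14 days. It was counted from 8 to 157 reads a library and lies across from Tmem258 on the other strand, and it passed in both strains at 14 days (0.96 in IKKβ∆Tub and 1.13 in control). Rfc3, a subunit of the clamp loader, had 0.0458, 0.0312 and 0.0309 in IKKβ∆Tub and 0.0413, 0.0448 and 0.0762 in control kidneys at baseline. The Rfc3 levels were 0.245, 0.225 and 0.287 in IKKβ∆Tub and 0.203, 0.262 and 0.292 in control kidneys at 2 days, and 0.0854, 0.0739 and 0.103 in IKKβ∆Tub and 0.137, 0.110 and 0.111 in control kidneys at 14 days. Its 14-day groups lay above baseline in both strains (1.18 in IKKβ∆Tub and 1.11 in control), whereas the loader subunits Rfc4 (0.39 in IKKβ∆Tub and 0.49 in control) and Rfc5 (0.10 in IKKβ∆Tub and 0.29 in control) did not pass.

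The 5 genes of nucleotide supply were higher at 2 days in both strains, and most were back at or below baseline at 14 days, with 1 higher and 1 lower in IKKβ∆Tub and 2 lower in control. Rrm2, the regulated subunit of ribonucleotide reductase, had 0.0635, 0.0740 and 0.0822 in IKKβ∆Tub and 0.0943, 0.0831 and 0.194 in control kidneys at baseline. The Rrm2 levels were 1.87, 2.26 and 2.24 in IKKβ∆Tub and 2.52, 2.51 and 2.80 in control kidneys at 2 days, and 0.0712, 0.0952 and 0.0732 in IKKβ∆Tub and 0.0659, 0.129 and 0.0815 in control kidneys at 14 days. Its 2-day change was 4.77 (SE 0.27, adjusted p = 2.35e-09) in IKKβ∆Tub and 4.44 (SE 0.27, adjusted p = 6.45e-09) in control, and the 14-day libraries overlapped baseline in both strains. Rrm1, its partner subunit, had 0.245, 0.145 and 0.149 in IKKβ∆Tub and 0.215, 0.245 and 0.321 in control kidneys at baseline. The Rrm1 levels were 1.03, 1.28 and 1.32 in IKKβ∆Tub and 1.22, 1.43 and 1.58 in control kidneys at 2 days, and 0.340, 0.245 and 0.296 in IKKβ∆Tub and 0.342, 0.312 and 0.333 in control kidneys at 14 days. Rrm1 was the nucleotide gene that stayed higher in IKKβ∆Tub (0.72, adjusted p = 0.0101), with 1 library of each time at 0.245, and in control it was at 0.35 (adjusted p = 0.159). Tyms, thymidylate synthase, had 0.261, 0.223 and 0.243 in IKKβ∆Tub and 0.309, 0.292 and 0.240 in control kidneys at baseline. The Tyms levels were 0.748, 0.617 and 0.804 in IKKβ∆Tub and 0.627, 0.837 and 0.906 in control kidneys at 2 days, and 0.161, 0.137 and 0.196 in IKKβ∆Tub and 0.134, 0.0827 and 0.106 in control kidneys at 14 days. All 14-day libraries of Tyms lay below all baseline libraries, with -0.56 (SE 0.20, adjusted p = 0.0333) in IKKβ∆Tub and -1.36 (SE 0.20, adjusted p = 4.49e-05) in control, and a Tyms pseudogene could share its reads. Tk1, the S phase thymidine kinase, had 0.0826, 0.101 and 0.104 in IKKβ∆Tub and 0.111, 0.0918 and 0.147 in control kidneys at baseline. The Tk1 levels were 1.32, 1.02 and 1.30 in IKKβ∆Tub and 1.08, 1.25 and 1.27 in control kidneys at 2 days, and 0.0669, 0.0849 and 0.0626 in IKKβ∆Tub and 0.0696, 0.0550 and 0.0480 in control kidneys at 14 days. It passed below baseline in control (-0.95, adjusted p = 0.000896) and not in IKKβ∆Tub (-0.40, adjusted p = 0.112), where 1 library overlapped. Dut, the dUTPase that keeps uracil out of DNA, had 0.138, 0.132 and 0.135 in IKKβ∆Tub and 0.171, 0.181 and 0.265 in control kidneys at baseline. The Dut levels were 0.864, 0.782 and 0.880 in IKKβ∆Tub and 0.757, 0.947 and 1.01 in control kidneys at 2 days, and 0.166, 0.141 and 0.248 in IKKβ∆Tub and 0.255, 0.185 and 0.137 in control kidneys at 14 days. Its 14-day change did not pass in IKKβ∆Tub (0.40) or in control (-0.11).

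The 3 genes of chromatin copying were higher at 2 days in both strains, and all 3 stayed higher at 14 days in IKKβ∆Tub and 1 in control. Uhrf1, which brings the maintenance DNA methyltransferase to newly copied DNA, had 0.0196, 0.0144 and 0.0155 in IKKβ∆Tub and 0.0103, 0.0152 and 0.102 in control kidneys at baseline. The Uhrf1 levels were 0.873, 1.04 and 1.06 in IKKβ∆Tub and 0.879, 1.13 and 1.36 in control kidneys at 2 days, and 0.0609, 0.0329 and 0.0652 in IKKβ∆Tub and 0.0696, 0.0651 and 0.0681 in control kidneys at 14 days. Control replicate 3 at baseline (0.102) lay above all 14-day libraries, and the 14-day change was 1.39 (SE 0.49, adjusted p = 0.0329) in IKKβ∆Tub and 1.18 (SE 0.49, adjusted p = 0.0545) in control. Chaf1b, a subunit of the assembly factor that puts histones onto new DNA, had 0.0166, 0.0266 and 0.0195 in IKKβ∆Tub and 0.0237, 0.0307 and 0.0383 in control kidneys at baseline. The Chaf1b levels were 0.398, 0.344 and 0.496 in IKKβ∆Tub and 0.313, 0.418 and 0.425 in control kidneys at 2 days, and 0.117, 0.0659 and 0.140 in IKKβ∆Tub and 0.134, 0.181 and 0.133 in control kidneys at 14 days. Chaf1b had the highest 14-day change of all members in both strains, 2.08 (SE 0.27, adjusted p = 8.45e-05) in IKKβ∆Tub and 2.11 (SE 0.27, adjusted p = 1.57e-05) in control, and every 14-day library lay above every baseline library. Chaf1a, the largest subunit of the same factor, passed in IKKβ∆Tub (1.16) and not in control (0.47, adjusted p = 0.135).

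All 5 genes of the E2F factors and E cyclins were higher at 2 days in both strains, and at 14 days none passed in IKKβ∆Tub and 1, E2f8, in control. E2f1, an activator, had 0.0443, 0.0594 and 0.0637 in IKKβ∆Tub and 0.0462, 0.0352 and 0.102 in control kidneys at baseline. The E2f1 levels were 0.509, 0.399 and 0.470 in IKKβ∆Tub and 0.438, 0.443 and 0.469 in control kidneys at 2 days, and 0.0403, 0.0381 and 0.0652 in IKKβ∆Tub and 0.0686, 0.0384 and 0.0511 in control kidneys at 14 days. Baseline and 14-day libraries of E2f1 overlapped in both strains (-0.22 in IKKβ∆Tub and -0.10 in control). E2f2, a second activator, had 0.0403, 0.0159 and 0.0171 in IKKβ∆Tub and 0.0398, 0.0359 and 0.0464 in control kidneys at baseline. The E2f2 levels were 0.206, 0.171 and 0.228 in IKKβ∆Tub and 0.164, 0.182 and 0.176 in control kidneys at 2 days, and 0.0214, 0.0329 and 0.0379 in IKKβ∆Tub and 0.0640, 0.0459 and 0.0413 in control kidneys at 14 days. Its 2-day change was 2.90 (SE 0.28) in IKKβ∆Tub and 1.98 (SE 0.28) in control, with 2 low IKKβ∆Tub libraries at baseline. E2f8, an atypical repressor of the family, had 0.000504, 0.00218 and 0.00214 in IKKβ∆Tub and 0.00195, 0.000690 and 0.0154 in control kidneys at baseline. The E2f8 levels were 0.161, 0.240 and 0.217 in IKKβ∆Tub and 0.203, 0.210 and 0.274 in control kidneys at 2 days, and 0.00858, 0.00293 and 0.0146 in IKKβ∆Tub and 0.0121, 0.0181 and 0.0158 in control kidneys at 14 days. The 2-day change of E2f8 was 4.99 (SE 0.40, adjusted p = 8.92e-08) in IKKβ∆Tub and 4.64 (SE 0.40, adjusted p = 2.55e-07) in control, from baseline libraries with as few as 1 read. Ccne1, the first E cyclin, had 0.00856, 0.0109 and 0.0135 in IKKβ∆Tub and 0.0100, 0.00552 and 0.0261 in control kidneys at baseline. The Ccne1 levels were 0.214, 0.185 and 0.187 in IKKβ∆Tub and 0.159, 0.182 and 0.204 in control kidneys at 2 days, and 0.0180, 0.0124 and 0.0206 in IKKβ∆Tub and 0.0186, 0.0213 and 0.0176 in control kidneys at 14 days. Ccne2, the second, had 0.0408, 0.0196 and 0.0178 in IKKβ∆Tub and 0.0371, 0.0328 and 0.0470 in control kidneys at baseline. The Ccne2 levels were 0.129, 0.270 and 0.107 in IKKβ∆Tub and 0.226, 0.263 and 0.330 in control kidneys at 2 days, and 0.0330, 0.0498 and 0.0280 in IKKβ∆Tub and 0.0436, 0.0448 and 0.0535 in control kidneys at 14 days. For both cyclins the 14-day and baseline libraries overlapped in each strain, and at 2 days IKKβ∆Tub replicates 1 and 3 were the low libraries for Ccne2.

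The 6 genes of fork protection and repair were higher at 2 days in both strains, and 2 in IKKβ∆Tub and 3 in control stayed higher at 14 days. Timeless, which holds helicase and polymerase together at the fork, had 0.0398, 0.0548 and 0.0525 in IKKβ∆Tub and 0.0554, 0.0480 and 0.0901 in control kidneys at baseline. The Timeless levels were 0.287, 0.280 and 0.311 in IKKβ∆Tub and 0.222, 0.282 and 0.298 in control kidneys at 2 days, and 0.113, 0.0739 and 0.142 in IKKβ∆Tub and 0.136, 0.103 and 0.151 in control kidneys at 14 days. It stayed higher in both strains (1.05 (SE 0.26, adjusted p = 0.00476) in IKKβ∆Tub and 0.99 (SE 0.26, adjusted p = 0.00459) in control), while its partner Tipin did not pass (0.28 in IKKβ∆Tub and 0.21 in control). Clspn, the gene of claspin, the adaptor that activates the checkpoint kinase CHK1, had 0.00353, 0.00175 and 0.00214 in IKKβ∆Tub and 0.00122, 0.00138 and 0.0212 in control kidneys at baseline. The Clspn levels were 0.224, 0.255 and 0.259 in IKKβ∆Tub and 0.224, 0.228 and 0.305 in control kidneys at 2 days, and 0.00600, 0.00512 and 0.00799 in IKKβ∆Tub and 0.0111, 0.0149 and 0.0116 in control kidneys at 14 days. Control replicate 3 at baseline again stood apart for Clspn (0.0212), and the 14-day change did not pass (0.61 in IKKβ∆Tub and 0.79 in control). Exo1, a nuclease of mismatch and break repair, had 0.00101, 0.000655 and 0 in IKKβ∆Tub and 0.00195, 0.00138 and 0.0154 in control kidneys at baseline. The Exo1 levels were 0.124, 0.159 and 0.142 in IKKβ∆Tub and 0.141, 0.158 and 0.183 in control kidneys at 2 days, and 0.00343, 0.00146 and 0.00399 in IKKβ∆Tub and 0.00928, 0.00640 and 0.00729 in control kidneys at 14 days. The 0 is a library without an Exo1 read, where 3 reads would be a level of 0.000713. Ung had 0.0282, 0.0460 and 0.0449 in IKKβ∆Tub and 0.0391, 0.0317 and 0.0357 in control kidneys at baseline. The Ung levels were 0.141, 0.117 and 0.164 in IKKβ∆Tub and 0.0998, 0.160 and 0.171 in control kidneys at 2 days, and 0.0631, 0.0805 and 0.0919 in IKKβ∆Tub and 0.104, 0.0961 and 0.0632 in control kidneys at 14 days. It was the member with the smallest fall after 2 days in control, its control libraries of 14 days (0.0632 to 0.104) meeting those of 2 days (0.0998 to 0.171), and at 14 days it was above baseline by 0.91 in IKKβ∆Tub and 1.17 in control. Over baseline at 14 days Brca1, a break repair gene, was at 0.80 in IKKβ∆Tub (adjusted p = 0.0831) and 1.63 in control (adjusted p = 0.00135).

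**Figure D3:**
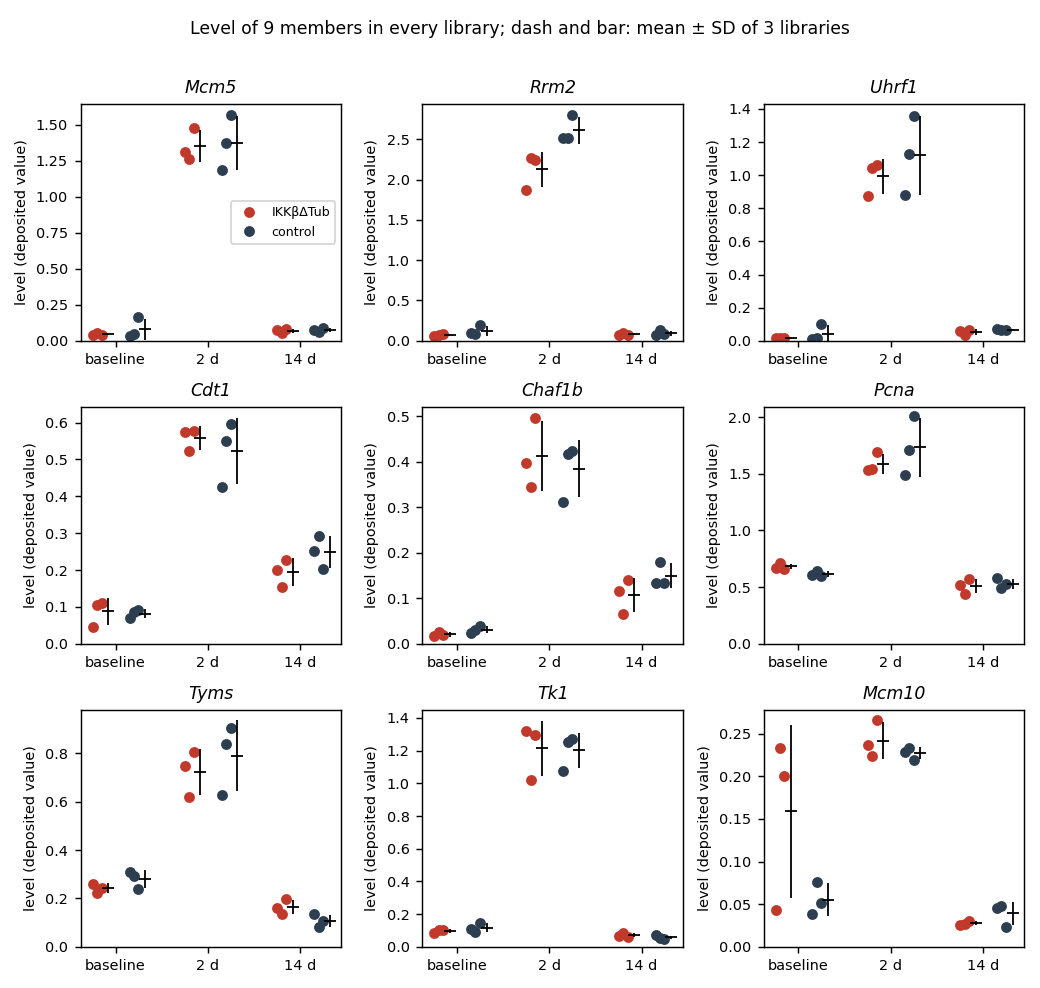
Levels of 9 members (vertical axes, normalised read count) in each library at baseline, 2 days and 14 days, IKKβ∆Tub in red left of control in dark, with mean ± SD of 3 libraries as dash and bar. Mcm5, Rrm2 and Uhrf1 are high at 2 days and low at the other times, Cdt1 and Chaf1b keep part of the rise at 14 days, and Tyms ends below baseline (0.137 to 0.196 in IKKβ∆Tub and 0.0827 to 0.134 in control kidneys).

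At 14 days the members were split between genes back at baseline and genes still above it. In IKKβ∆Tub kidneys 22 were higher (28.3% of tested genes were) and 3 were lower (11.2% of tested genes), with a median log2 fold change of 0.60 over the members and 0.25 over all tested genes. In control kidneys 21 were higher (32.5% of tested genes) and 2 lower (17.3%), with medians of 0.55 and, over all tested genes, 0.23. The members higher in both strains numbered 17, which is 77.3% of the IKKβ∆Tub and 81.0% of the control calls, and they were Cdt1, Chaf1b, Fen1, Gins2, Lig1, Mcm3, Mcm6, Mcm7, Orc1, Orc6, Pola2, Pold1, Pole, Prim2, Rfc3, Timeless and Ung. Chaf1a, Gmnn, Prim1, Rrm1 and Uhrf1 passed in IKKβ∆Tub alone, and Brca1, E2f8, Gins1 and Mcm4 in control alone, with no strain difference of these changes past the threshold. Without control replicate 3 at baseline, Chaf1a and Uhrf1 also passed in control. Without IKKβ∆Tub replicate 2 at 14 days, Brca1, E2f8 and Gins1 also passed in IKKβ∆Tub. The part of the 2-day rise that was left at 14 days, taken from group means, had a median of 8.90% in IKKβ∆Tub and 8.11% in control kidneys. It ran in IKKβ∆Tub from -158% for Mcm10 to 45.0% for Gmnn, and in control from -34.0% for Tyms to 48.3% for Ung. By role the median was 22.7% in IKKβ∆Tub and 20.6% in control for licensing genes, and 13.6% in IKKβ∆Tub and 14.1% in control for polymerases and primase. For the E2F factors and E cyclins it was 3.48% in IKKβ∆Tub and 3.57% in control, and for nucleotide supply 0.323% in IKKβ∆Tub and -1.91% in control. The count in IKKβ∆Tub depended on the libraries and terms in the fit, for the members as for all genes. Without replicates 2 and 3 of IKKβ∆Tub baseline 5 members passed (10.6% of tested genes), against 25 (39.5%) with all libraries. With the 2 compared groups alone in the fit 12 passed (18.7% of tested genes), and with the Y-linked level as a covariate 16 (25.1%). These last settings, the others tried and each single library left out in turn all kept at least 1 of those baseline libraries. Across them 9 members always passed as higher (Chaf1a, Chaf1b, Gmnn, Mcm3, Mcm6, Mcm7, Pold1, Pole and Rfc3) and 1 as lower (Mcm10) in IKKβ∆Tub. In control 16 always passed as higher and 2 as lower. The fit without both baseline libraries is not among these settings and leaves 1 library in that group. In it Mcm10 was at -0.56 and lost its call, as did Chaf1a, Gmnn, Mcm3, Mcm6, Pold1, Pole and Rfc3. At 14 days the mitosis markers stood at 0.299 to 0.467 in IKKβ∆Tub and 0.586 to 0.608 in control kidneys, and the macrophage markers at 2.46 to 13.2 in IKKβ∆Tub and 20.6 to 28.7 in control kidneys. Fibroblast markers stood at 6.90 to 14.1 in IKKβ∆Tub and 11.8 to 18.9 in control kidneys. Within that sum Col1a1 and Col3a1 were lower than at 2 days. Dcn was higher than at 2 days, at 2.79 to 4.66 in IKKβ∆Tub and 4.53 to 6.70 in control kidneys. The part of these markers in what remained of the rise was not tested.

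**Figure D4:**
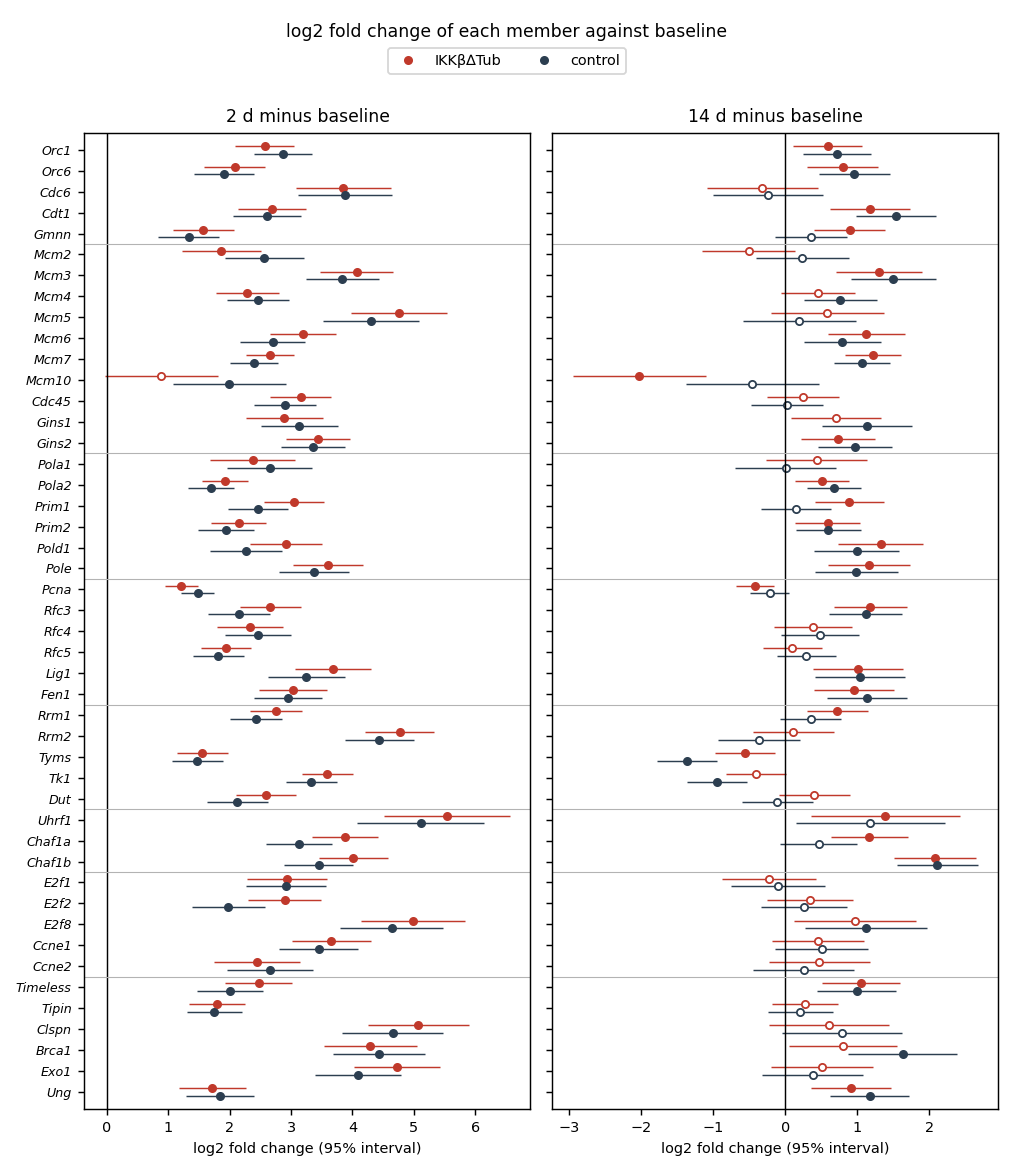
log2 fold change over baseline (horizontal axis, with 95% interval) of each member at 2 days and 14 days, IKKβ∆Tub in red above control in dark; filled points passed adjusted p 0.05 and open points did not. All filled points at 2 days are right of 0, and at 14 days the points range from -2.02 (Mcm10) to 2.08 (Chaf1b) in IKKβ∆Tub and from -1.36 (Tyms) to 2.11 (Chaf1b) in control.

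No member passed the test between the strains at any of the 3 times. At 2 days the count was 0 of 46 by limma, as it was over all tested genes (0%), with 1 member at an unadjusted p under 0.05 (6.76% of tested genes). edgeR gave 0 members (0% of tested genes) and DESeq2 gave 0 (0.00612%). That member was Ccne2, at -0.77 (SE 0.33, adjusted p = 0.717), and the median over the members was -0.08. The 95% interval of the 2-day difference lay within 2-fold for 42 members, the outermost bounds being -1.47 for Ccne2 and 1.01 for Mcm10. Rrm2 was the only member whose 2-day groups did not overlap, with 1.87, 2.26 and 2.24 in IKKβ∆Tub and 2.52, 2.51 and 2.80 in control kidneys, where 6.3% of tested genes were likewise lower without overlap. Its difference was -0.30 (SE 0.27, adjusted p = 0.868). Control replicate 1 was the lowest of its group in 40 members and control replicate 3 the highest in 38, so that the strains were compared against a wide control range. Without control replicates 1 and 2, whose Ikbkb level was no higher than in the deleted strain, limma called 0 members. That leaves 1 control library, which is assumed to vary like the other groups, and says nothing about the stability of the count.

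At baseline 0 of 46 members differed by limma, against 0.0428% of tested genes in either direction. At an unadjusted p under 0.05 there were 10 (15.6% of tested genes), with edgeR 0 (0.483%), and with DESeq2 4 (4.52%), which were Mcm10, Prim1, Chaf1a and Exo1. Prim1 had levels of 0.0609, 0.0436 and 0.0402 in IKKβ∆Tub and 0.0730, 0.0766 and 0.119 in control kidneys, without overlap, and a difference of -0.81 (SE 0.23, adjusted p = 0.150). Chaf1a had 0.0166, 0.0192 and 0.0145 in IKKβ∆Tub and 0.0217, 0.0283 and 0.0522 in control kidneys, also without overlap, and a difference of -0.77 (SE 0.25, adjusted p = 0.181). In all, 38 members had a difference below 0 (61.7% of tested genes did), 8 were lower in IKKβ∆Tub without overlap (14.9% of tested genes) and 1, Pcna, was higher without overlap (7.11%). The median was -0.26 over the members and -0.09 over all tested genes. Control replicate 3 was the highest of its group in 38 members, and without it 26 were below 0 with a median of -0.06. Leaving out IKKβ∆Tub replicate 1 at baseline gave 5 calls (Mcm2, Mcm10, Prim1, Rrm1 and E2f2), and 8.1% of tested genes. The IKKβ∆Tub libraries then left had summed Y-linked levels of 2.30 and 2.42, against at most 0.00195 in control kidneys at baseline. Strain and Y-linked reads cannot be told apart in these calls.

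At 14 days 0 of 46 members differed by limma, against 0.367% of tested genes, with 3 at an unadjusted p under 0.05 (14% of tested genes), 0 by edgeR (0.0306%) and 1 by DESeq2 (3.13%). The DESeq2 call was Tyms, with 0.161, 0.137 and 0.196 in IKKβ∆Tub and 0.134, 0.0827 and 0.106 in control kidneys, no overlap, and a limma difference of 0.60 (SE 0.20, adjusted p = 0.148). It was the 1 member higher in IKKβ∆Tub without overlap (4.44% of tested genes). The others at an unadjusted p under 0.05 were E2f2, at -0.64 (SE 0.28, adjusted p = 0.314), and Brca1, at -0.93 (SE 0.36, adjusted p = 0.234). Brca1 had 0.0210, 0.0124 and 0.0253 in IKKβ∆Tub and 0.0343, 0.0502 and 0.0389 in control kidneys, and with Mcm3, Rfc3, E2f2, Clspn and Exo1 made up the 6 members lower in IKKβ∆Tub without overlap (9.07% of tested genes). Differences below 0 were seen in 40 members, against 57.7% of tested genes, with a median of -0.24 over the members and -0.05 over all tested genes. IKKβ∆Tub replicate 2 was the lowest of its group in 34 members, and without it 29 were below 0 with a median of -0.09. That library also had the lowest macrophage sum of the 14-day libraries, 2.46, against 11.3 and 13.2 in the other IKKβ∆Tub libraries. Its proximal tubule sum was 68.7, against 27.4 and 31.9 in those libraries. Thick limb and distal tubule markers, 6 genes summed, stood at 96.2 in it, against 23.6 and 26.7. This last sum lay within the range of the IKKβ∆Tub baseline libraries. The proximal tubule sum lay below that range of baseline libraries and the macrophage sum above it. The part of these marker differences in the strain differences was not tested.

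No member passed the limma test of a change with time that differs between the strains, with 0 calls for 14 days against 2 days (0.0306% of tested genes) and 0 for 14 days against baseline (0.116%). A strain difference in the change from baseline to 2 days was not tested. At an unadjusted p under 0.05 there was 1 member for 14 days against 2 days (9.75% of tested genes), and there were 3 for 14 days against baseline (17.4%). edgeR called 0 members in both, with 0.0122% of tested genes for 14 days against 2 days and 0.239% for 14 days against baseline. DESeq2 called 0 for 14 days against 2 days (0.612%) and 1 for 14 days against baseline (5.38%). Tyms was at 0.72 (SE 0.28, adjusted p = 0.380) for 14 days against 2 days and 0.81 (SE 0.28, adjusted p = 0.161) for 14 days against baseline. Mcm10, the DESeq2 call, was at -1.56 (SE 0.62, adjusted p = 0.211) and Prim1 at 0.74 (SE 0.32, adjusted p = 0.252), both for 14 days against baseline. Intervals of the strain difference lay within 2-fold for 28 members at baseline and 33 at 14 days, and for the remaining members a 2-fold difference lay inside the interval.

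**Figure D5:**
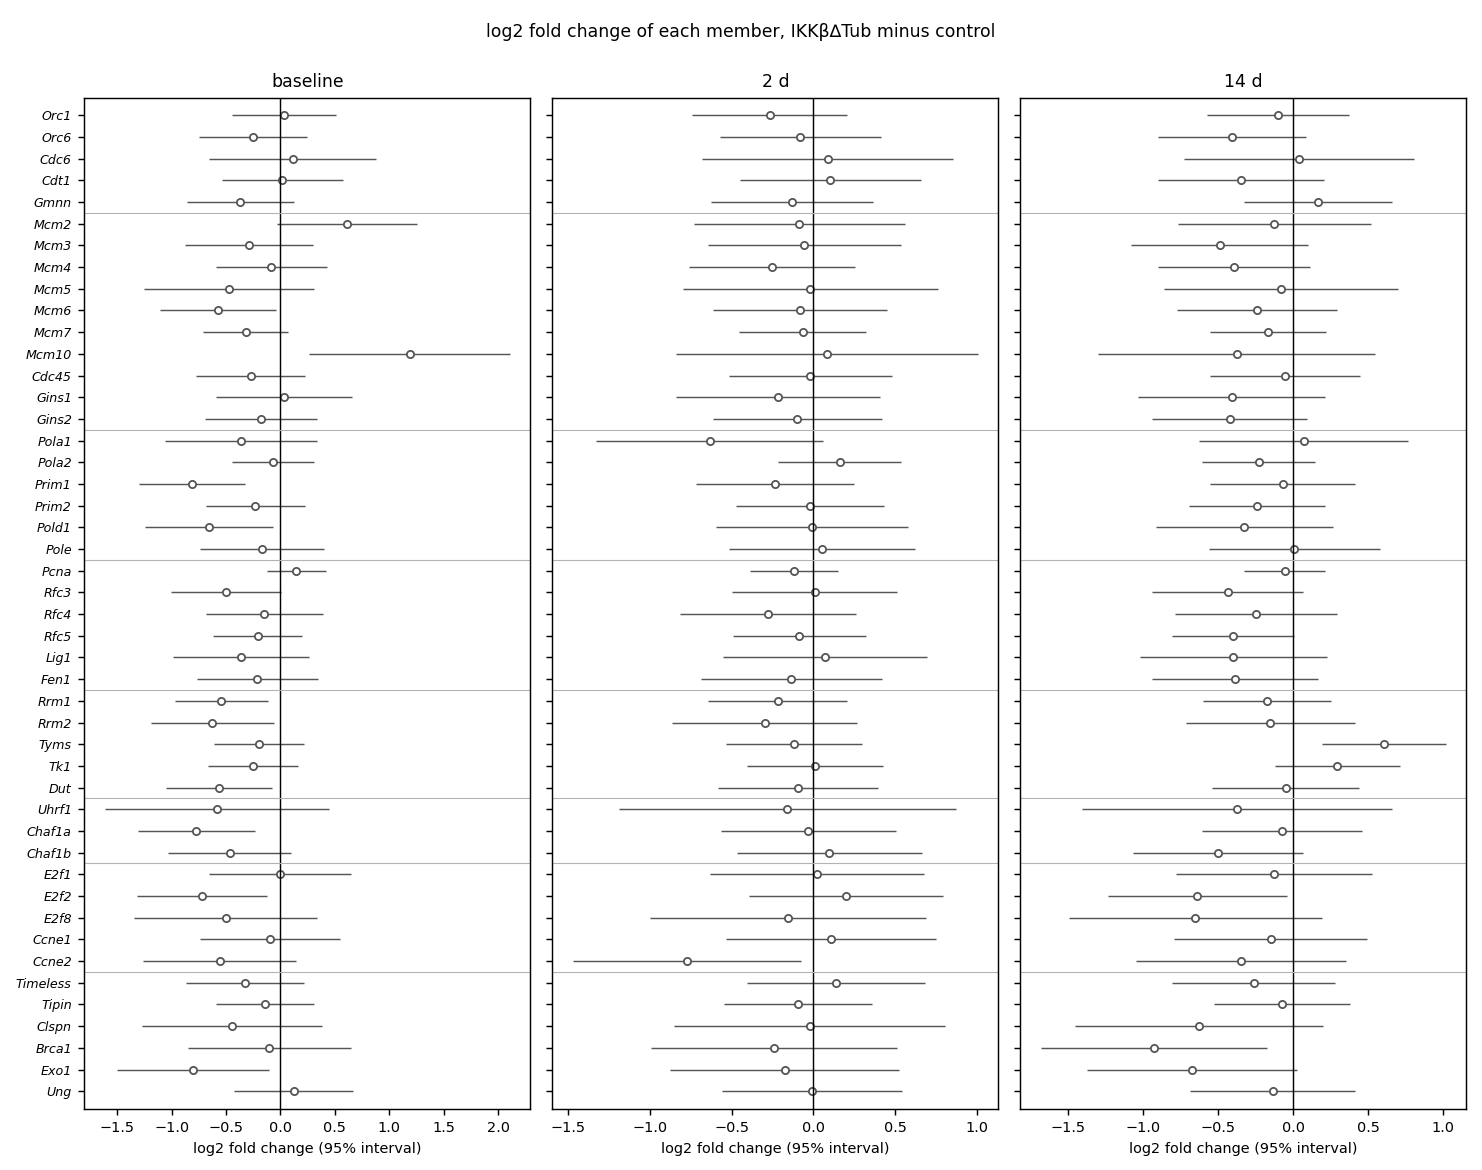
log2 fold change of IKKβ∆Tub over control (horizontal axis, with 95% interval) of each member at baseline, 2 days and 14 days; open points did not pass adjusted p 0.05. All points are open, and they range from -0.81 (Prim1) to 1.19 (Mcm10) at baseline, -0.77 (Ccne2) to 0.20 (E2f2) at 2 days and -0.93 (Brca1) to 0.60 (Tyms) at 14 days.

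Other genes of replication, a list of 67, moved with the members at 2 days, 50 being higher (35.4% of tested genes) and 5 lower (14.9%) in IKKβ∆Tub and 51 higher (25.4%) and 1 lower (11.3%) in control. Ccna2, the S phase cyclin, was at 6.08 in IKKβ∆Tub and 5.52 in control, and Asf1b, a histone chaperone, at 4.36 in IKKβ∆Tub and 4.35 in control. Of those that fell, Rrm2b, the p53-induced reductase subunit, was at -1.45 and Rbl2, the pocket protein of resting cells, at -0.83 in IKKβ∆Tub, and Shmt2, the mitochondrial serine hydroxymethyltransferase, at -0.74 in control. At 14 days 24 of the 67 were higher (28.3% of tested genes) and 3 lower (11.2%) in IKKβ∆Tub, and 26 higher (32.5%) and 5 lower (17.3%) in control. The lower ones included Shmt2 (-1.44 in IKKβ∆Tub and -1.95 in control). Among the higher ones were Samhd1, which breaks down dNTPs (1.30 in IKKβ∆Tub and 1.42 in control), Rpa3 of the single-strand binding complex (1.32 in IKKβ∆Tub) and Wdhd1, a fork factor (1.59 in control). In the strain comparisons limma called 0 genes of the list at each time, with 12 at an unadjusted p under 0.05 at baseline (15.6% of tested genes), 8 at 2 days (6.76%) and 6 at 14 days (14%). edgeR called 0 of them at each time, and DESeq2 called 6 at baseline (4.52% of tested genes) and 0 at 2 and 14 days.

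The 7 inhibitors of cyclin-dependent kinases, which hold cells out of S phase, were mixed. At 2 days 3 were higher (35.4% of tested genes) and 1 lower (14.9%) in IKKβ∆Tub, and 3 higher in control (25.4%). At 14 days 5 were higher in each strain (28.3% of tested genes in IKKβ∆Tub and 32.5% in control). The log2 fold change of Cdkn2c at 2 days was 1.90 in IKKβ∆Tub and 1.97 in control. Cdkn1b, the gene of p27, was the lower one in IKKβ∆Tub (-0.54), and Cdkn1a, the gene of p21, was at 0.19 in IKKβ∆Tub (not past the threshold) and 2.63 in control. The Cdkn1a levels at baseline were 0.378, 2.88 and 2.40 in IKKβ∆Tub and 0.396, 0.398 and 0.135 in control kidneys, and at 2 days 1.63, 1.40 and 1.72 in IKKβ∆Tub and 1.65, 1.72 and 1.86 in control kidneys. IKKβ∆Tub replicates 2 and 3 at baseline, the libraries with Y-linked reads, lay above every 2-day library, and a strain difference in this change was not tested. Mitosis markers, a list of 12, were all higher at 2 days in both strains, with medians of 5.90 in IKKβ∆Tub and 5.27 in control, and 7 in IKKβ∆Tub (28.3% of tested genes) and 8 in control (32.5%) were still higher at 14 days. Top2a led them in IKKβ∆Tub (6.66) and Birc5 in control (5.87).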

How the data were processed

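Poly(A) mRNA of 18 whole-kidney libraries was sequenced from stranded kits. Per the labels and the study's methods, reads were processed with FastQC 0.11, Trim Galore 0.4, STAR 2.5.2b on GRCm38, featureCounts 1.5.2, StringTie 1.3.3b, MultiQC 1.4 and R 3.6.3 with DESeq2 1.26.0. The strand setting of the counting is not given in the sources used here, so reads of genes that overlap on opposite strands may not be told apart. Among them are Orc6 and Vps35, Cdc45 and Ufd1, Fen1 and Tmem258, Rfc4 and Eif4a2, and Tk1 and Afmid. Others are Mcm7 with Cops6 and Ap4m1, Chaf1a and Ubxn6, Lig1 and Zswim9, Rfc5 and Wsb2, Gins2 and Gse1, and Ccne2 and Ints8. The deposited signal values are gene read counts that the authors divided by the 90th percentile of each library. Whole reads were recovered from 100% of the values within 0.001 read. They amount to 12306138 to 66317182 reads a library, and 6 of the 46 members had under 10 reads in at least 1 library. No per-sample column was left out (0 columns).

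The 46 members, the other lists, the motifs and the tests were chosen with earlier results of these data known. Tests used limma 3.58.1 in R 4.3.3 on log2(value + 0.005) with a mean-variance trend, all 18 libraries and 6 groups in 1 fit, for the 16342 genes that reached 0.005 in 3 or more libraries. Adjusted p-values are Benjamini-Hochberg values within each of 11 comparisons over all genes tested, at a threshold of 0.05. The unit was not the count that the test plan allowed for, so count tests on the recovered reads (edgeR 4.0.16 and DESeq2 1.42.0) were alternatives. The fit was tested on simulated data. The members given with every library were fixed as 1 to 5 per role, and beyond them those at the ends of a comparison, those on the other side of the majority and those past a threshold in another test. The other lists gave their 2 or 3 highest and lowest genes, and Cdkn1a and Cdkn1b were named with their values known.

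Other alternatives were pseudocounts of 0.02 and 0.001, no filter, median-ratio and TMM scaling, no trend, only the groups compared, the Y-linked level as a covariate, the replicate number as a block and each library left out in turn. Nothing in the labels says how the mice of a group relate, so p-values measure only the spread between these libraries. Coordinates of genes are those of GENCODE M21 by Ensembl ID, and promoter bases those of RefSeq, with gene starts that can differ. Sequences of 9 members (Ccne2, Exo1, Gins1, Gins2, Gmnn, Mcm4, Pole, Prim2 and Tipin) were not used here. Figures were drawn in Python 3.11.15 with matplotlib 3.10.9.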

Additional observations from a re-analysis of the deposited data

How the results depend on the processing

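The 2-day calls over baseline held, with 45 to 46 members in IKKβ∆Tub kidneys and 46 in control kidneys when each library was left out in turn. For 14 days against 2 days that range was 44 to 46 in IKKβ∆Tub and 45 to 46 in control. For 14 days against baseline it was 17 to 26 in IKKβ∆Tub (25 with all libraries, 17 without baseline replicate 3 or 14-day replicate 3) and 18 to 29 in control (23 with all libraries). Between the strains it was 0 to 5 at baseline, 0 to 0 at 2 days and 0 to 0 at 14 days, and for the interactions 0 to 0 (14 days against 2 days) and 0 to 2 (14 days against baseline, Mcm2 and Mcm10 without IKKβ∆Tub baseline replicate 1). Calls gained without that replicate rest on the IKKβ∆Tub baseline libraries with Y-linked reads. The IKKβ∆Tub count of 14 days against baseline was 12 with only the groups compared, 16 with the Y-linked level as a covariate, and 5 without IKKβ∆Tub baseline replicates 2 and 3, an alternative chosen after seeing the data. The fit with fewer groups has fewer libraries, and the cause of the other values was not tested. DESeq2 called 4 members between the strains at baseline, 1 at 14 days and 1 in the interaction of 14 days against baseline, where limma called 0. Without control replicates 1 and 2 at 2 days, 45 members were higher in control at 2 days (Mcm10 lost).

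Scaling mattered for the comparisons with baseline. The median of all tested genes for IKKβ∆Tub at 2 days was 0.25 as deposited and -0.03 with median-ratio scaling, with 70.4% and, rescaled, 49.2% of calls higher. At 14 days that share was 71.7% and, rescaled, 51.2% in IKKβ∆Tub, and 65.3% and, rescaled, 51.5% in control, and at 2 days in control 69.3% and, rescaled, 53.5%. The members' 2-day median went from 2.89 to 2.61 in IKKβ∆Tub and from 2.65 to 2.47 in control with this scaling, and no called member changed sign. At 14 days over baseline 17 members were then higher and 4 lower in IKKβ∆Tub and 19 higher and 3 lower in control, with Tk1 lower in IKKβ∆Tub and Pcna lower in control as calls gained.

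Replicate numbers are shared between groups, and the titles give them the same mouse numbers at each time, while the deposited sample key lists other animals at each time. Of 27 same-number pairs 6 had correlated deviations over 0.1 (range -0.35 to 0.36), so the block was not used. With the replicate block the counts over baseline at 2 days were 45 in IKKβ∆Tub and 46 in control, those over baseline at 14 days were 25 in IKKβ∆Tub and 24 in control, with 45 in each strain for 14 days against 2 days, and 0 in the strain comparisons and interactions. Low read numbers limit Orc1, Cdc6, Fen1, E2f8, Clspn and Exo1 at baseline. Apart from Fen1 they also limit these genes at 14 days, where Cdc6 had 5 to 16 reads a library and Exo1 2 to 12.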
